A study of Mus musculus with 12 samples.

Results

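The genotype difference in the IgM response is the change of a gene with IgM in Foxp1flox/del cells minus its change in Foxp1wt/flox cells, an interaction in a design of 2 genotypes by 2 conditions. All 12 arrays of the study enter it, 3 in each of the 4 groups, and it was computed for each of 9293 genes. The cells were B220-positive B cells sorted by flow cytometry from the spleens of mice on a mixed 129/Sv and C57BL/6 background. They were incubated for 4 h, with or without what the labels call IgM. The deleted genotype, Foxp1flox/del, carries a conditional allele and a deleted allele, and the control genotype, Foxp1wt/flox, carries the same conditional allele beside a wild-type one, so every group holds a flox allele. The labels do not give the Cre line, whether the conditional allele was recombined, the age of the mice, the form of the IgM reagent, or whether replicates came from separate mice or cultures. The p-values therefore measure only the spread between these samples, which may be technical.

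Foxp1 encodes a forkhead transcription factor that is needed for early B cell development and acts largely as a repressor. Binding of antigen or of an antibody to surface immunoglobulin activates the B cell receptor, whose kinases switch on calcium, Ras-MAPK and NF-kB signalling. Within hours, early response factors such as Nr4a1 and Egr1 are induced, activation proteins appear on the cell surface, feedback inhibitors are made, and genes kept on by FOXO factors in resting cells are turned down. A positive interaction means that the change with IgM was more upward, or less downward, in flox/del cells, and a negative one the reverse.

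Values are log2 signals with a floor near 2.23, and differences between them are log2 differences. Because a gene that lies at or near the floor in both wt/flox groups can show little or no fall there, genes were set in 3 classes by their group means. In 8658 genes all 4 group means were at log2 4 or more, so a change could be measured in both genotypes. In 227 genes both wt/flox means were under 4 (the floor class, whose bound lies above the floor itself), and the remaining 408 genes lay between these classes. Moving the boundary to 3.5 or 5 changed the floor class to 108 or 743 genes. All 19 B cell identity genes on the array, such as Ms4a1 and Cd79a, were above the floor. Of 14 T cell genes on the array, 7 were at it in every group, among them Cd3e, Cd4 and Cd8a. Of 15 macrophage and monocyte genes, 6 were, among them C1qa, C1qb and C1qc. The rest were not, such as Il7r of the T cell list (7.24 to 10.2 over the 12 arrays) and Mpeg1 of the macrophage list (9.93 to 12.10).

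One array stood apart from the others. Flox/del IgM replicate 3 correlated with its group mates at 0.817 and 0.865, while all other pairs of arrays within a group correlated at 0.951 or more. Its bacterial poly-A control signal averaged 6.94, against 8.05 to 10.73 on the other arrays. This signal fell from replicate number 1 to 3 in every group, and the other arrays of number 3 were at 8.05 to 8.74. When the interaction was computed from the 4 arrays of each replicate number alone, its SD over genes was 0.47 for number 1, 0.44 for number 2 and 1.19 for number 3, the number that holds this array. Counts, and the values of most genes named, are therefore given from all 12 arrays and from the other 11. In both fits the replicate number was a block, meaning that differences common to same-numbered arrays were removed.

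**Figure D1:**
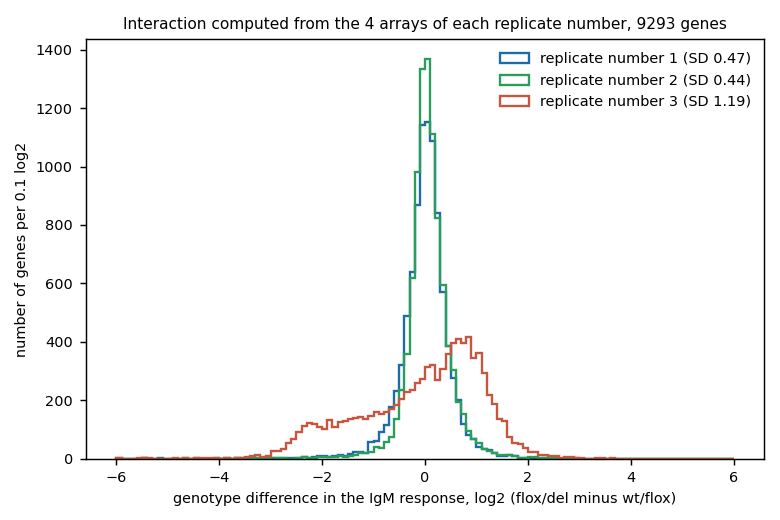
The genotype difference in the IgM response of 9293 genes (log2, horizontal axis) computed separately from the 4 arrays of each replicate number, as the number of genes per bin of 0.1 (vertical axis). Numbers 1 and 2 give narrow distributions around 0 (SD 0.47 and 0.44), and number 3 a wide one with a second shoulder below 0 (SD 1.19).

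Foxp1 itself was measured by 8 probe sets, all above the filter. On the brightest, its log2 signal in replicates 1 to 3 was 12.27, 13.14 and 13.30 in unstimulated wt/flox cells, 12.08, 12.91 and 13.06 in wt/flox cells with IgM, 12.26, 13.16 and 13.20 in unstimulated flox/del cells, and 12.15, 12.74 and 13.06 in flox/del cells with IgM. The ranges of the 4 groups overlapped, while within each replicate number the signal was lower with IgM in both genotypes. Without flox/del IgM replicate 3, Foxp1 fell by 0.22 in wt/flox cells (adjusted p = 0.0497, limma with Benjamini-Hochberg), and its change of -0.25 in flox/del cells did not pass (adjusted p = 0.0635). With 12 arrays neither change passed (adjusted p = 0.241 and 0.21). Over the 8 probe sets, the unstimulated means of wt/flox and flox/del cells were nearest at 12.44 and 12.43 and furthest apart at 11.81 and 11.52. The labels do not give the deleted stretch of the gene, so a probe set outside it would check nothing about the genotype. The interaction of Foxp1 was -0.01 ± 0.19 (SE, limma adjusted p = 0.988, Benjamini-Hochberg) with 12 arrays and -0.03 without flox/del IgM replicate 3, and the 8 probe sets ranged from -0.23 to 0.22 with none passing.

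With all 12 arrays, 16 of 9293 genes passed an adjusted p of 0.05 for the interaction (limma with Benjamini-Hochberg adjustment), which is 0.172% of the genes tested. The response of 2 genes was higher in flox/del cells (0.0215%) and that of 14 was lower (0.151%). Of the 16, 4 were measurable in all 4 groups, 4 lay between the classes, and 8 were at the floor in both wt/flox groups. A gene of the floor class had passed the filter on low values largely through its flox/del arrays, so its higher level there follows largely from the choice. A fall on its wt/flox arrays could be seen only in part or not at all. The share of calls in this class is therefore not read against that of other genes. Every one of the 16 had the same sign within each of the 3 replicate numbers, which choosing them by a small p favours. Among all genes tested 44.0% had the same sign in all 3. At an unadjusted p under 0.05 there were 796 genes. Leaving out any one of the other 11 arrays gave 6 to 10 passing genes, except for 13 without flox/del unstimulated replicate 3, and leaving out flox/del IgM replicate 3 gave 187. Without the replicate block 10 genes passed, 8 of them in the floor class and none in the measurable class.

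The 3 measurable genes with a lower response moved in opposite directions in the genotypes. Slamf1 encodes a surface receptor of lymphocytes (CD150). Its log2 signal in replicates 1 to 3 was 5.66, 6.20 and 6.34 in unstimulated wt/flox cells and 6.84, 7.42 and 7.17 with IgM. In flox/del cells it was 8.57, 9.35 and 9.25 without IgM and 7.90, 8.52 and 8.60 with it. All flox/del arrays were thus above all wt/flox arrays, the wt/flox groups did not overlap, and the flox/del arrays were lower with IgM within each replicate number. The interaction was -1.79 ± 0.21 with 12 arrays (SE, limma adjusted p = 0.0134) and -1.84 ± 0.15 without flox/del IgM replicate 3 (adjusted p = 0.00168). In the latter fit Slamf1 rose by 1.07 in wt/flox cells and fell by 0.77 in flox/del cells, and both changes passed. The other 2 Slamf1 probe sets had the same sign and did not pass with 12 arrays, at -1.29 (adjusted p = 0.202 over all probe sets) and -1.496 (adjusted p = 0.217).

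Chka encodes choline kinase alpha, which starts phosphatidylcholine synthesis. Its signal was 6.20, 6.43 and 6.90 in unstimulated wt/flox cells, 7.50, 8.35 and 8.74 with IgM, 10.15, 10.53 and 11.28 in unstimulated flox/del cells, and 9.24, 9.70 and 11.04 with IgM. The wt/flox groups did not overlap, while the flox/del groups did, although each replicate number was lower with IgM. The interaction was -2.34 ± 0.31 (adjusted p = 0.0295, limma), and -2.61 ± 0.20 without flox/del IgM replicate 3. Another 2 Chka probe sets gave -2.41 and -1.83 and did not pass when all probe sets were tested.

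Cyp20a1 encodes a cytochrome P450 without an established substrate. Its signal was 9.97, 9.47 and 9.46 in unstimulated wt/flox cells, 10.65, 9.78 and 10.65 with IgM, 12.84, 12.48 and 13.17 in unstimulated flox/del cells, and 11.77, 11.17 and 11.43 with IgM. Every flox/del array was above every wt/flox array, and the flox/del groups did not overlap. The interaction was -2.10 ± 0.29 (adjusted p = 0.0303, limma), and -2.01 ± 0.27 without flox/del IgM replicate 3. A second Cyp20a1 probe set gave -2.33 with 12 arrays and did not pass when all probe sets were tested (adjusted p = 0.061).

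The only measurable gene with a higher response was Mturn, which encodes maturin, a protein described in neural differentiation. Its signal was 7.28, 6.86 and 6.86 in unstimulated wt/flox cells and 5.09, 4.27 and 4.74 with IgM. In flox/del cells it was 7.47, 6.88 and 7.09 without IgM and 6.54, 6.02 and 6.60 with it. The unstimulated groups of the genotypes overlapped, while with IgM all flox/del arrays were higher. Mturn fell by 2.30 in wt/flox cells and by 0.89 in flox/del cells in the fit without flox/del IgM replicate 3. The interaction was 1.54 ± 0.23 with 12 arrays (adjusted p = 0.0458, limma) and 1.41 ± 0.15 without that array.

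Among the 12 fits that each left out 1 array, Slamf1 passed in 6 and Chka, Cyp20a1 and Mturn in 1 each. All 4 kept their direction in every one, which choosing them by a small p on the same arrays favours. Their adjusted p (limma) in the fits in which they did not pass was 0.0539 to 0.199.

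The 250 bases before the start of these genes were searched for 4 motifs on both strands, since Foxp1 is a forkhead factor and the B cell receptor activates CREB, AP-1 and NF-kB. The motifs were TGTTTAC (forkhead), TGACGTCA (CRE), TGANTCA (AP-1) and the NF-kB motif, GGGA and CC with any 4 bases between them. Of 72 named genes of the measurable class, 58 had 71 windows from the RefSeq promoter table (GRCm38.p6) in the search. The windows of a single chromosome were left out of these 71 but not of all 32851, so the shares below are not of like sets. The forkhead letters were in 3 of these windows (4.23%, against 3.17% of all 32851 windows), the CRE in 1 (1.41% against 1.55%), AP-1 in 2 (2.82% against 6.75%) and NF-kB in 15 (21.1% against 17.6%). A match describes letters only and is no evidence of a site. The windows below are those of Slamf1, which has none of the 4 motifs, of Mturn, the one with a CRE, and of Prdm1 and Bcl2l11, 2 of the 3 with the forkhead letters. The capitals mark the matches.
Slamf1: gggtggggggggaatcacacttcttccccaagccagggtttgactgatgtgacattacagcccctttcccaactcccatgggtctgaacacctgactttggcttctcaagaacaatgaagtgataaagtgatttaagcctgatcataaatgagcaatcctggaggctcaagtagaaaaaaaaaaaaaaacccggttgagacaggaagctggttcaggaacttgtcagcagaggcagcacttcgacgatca
Mturn: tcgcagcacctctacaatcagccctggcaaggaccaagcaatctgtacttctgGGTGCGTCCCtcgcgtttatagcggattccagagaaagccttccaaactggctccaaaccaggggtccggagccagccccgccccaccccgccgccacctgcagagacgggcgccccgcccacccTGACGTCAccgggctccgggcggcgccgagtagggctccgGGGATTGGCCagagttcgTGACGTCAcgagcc
Prdm1: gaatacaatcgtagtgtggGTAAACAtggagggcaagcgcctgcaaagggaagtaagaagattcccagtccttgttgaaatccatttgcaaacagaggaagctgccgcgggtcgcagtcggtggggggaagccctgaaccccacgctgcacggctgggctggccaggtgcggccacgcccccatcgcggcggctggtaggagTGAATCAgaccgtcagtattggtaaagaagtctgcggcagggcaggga
Bcl2l11: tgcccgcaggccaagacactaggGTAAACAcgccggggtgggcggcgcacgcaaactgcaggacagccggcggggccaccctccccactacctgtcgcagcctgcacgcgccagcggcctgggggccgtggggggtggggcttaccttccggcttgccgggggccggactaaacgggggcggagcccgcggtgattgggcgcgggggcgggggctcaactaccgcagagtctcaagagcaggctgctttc
They run 5′ to 3′ on the gene's strand, from chr1:171766882-171767131 for Slamf1, chr6:54681374-54681623 for Mturn and chr2:128125788-128126037 for Bcl2l11, all on the plus strand, and chr10:44458749-44458998 for Prdm1 on the minus strand. In Mturn the CRE letters begin 72 and 14 bases before the start and those for NF-kB 197 and 32 bases before it. In Prdm1 the forkhead letters begin 231 bases and the AP-1 letters 48 bases before the start. In Bcl2l11 the forkhead letters begin 227 bases before it. Another window of Bcl2l11, not shown, had none of the 4 motifs.

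Of the 4 genes between the classes, Spry1 had the largest interaction. It encodes Sprouty 1, a feedback inhibitor of Ras-MAPK signalling. Its signal was 2.62, 3.42 and 2.86 in unstimulated wt/flox cells, where it was near the floor, and 5.003, 6.26 and 4.40 with IgM. In flox/del cells it was 6.72, 6.91 and 6.15 without IgM and 3.67, 3.81 and 3.42 with it. The order of the conditions was thus opposite in the genotypes, and neither pair of groups overlapped. The interaction was -5.22 ± 0.40 with 12 arrays (adjusted p = 9.75e-04, limma) and -5.34 without flox/del IgM replicate 3. In the latter fit Spry1 rose by 2.26 in wt/flox cells and fell by 3.08 in flox/del cells. Spry1 passed in 12 of 12 fits that left out 1 array. Since 2 of its groups lay under log2 4, both changes are compressed by the floor.

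Il1r1, the signalling receptor of interleukin-1, was at 3.23, 3.07 and 2.72 in unstimulated wt/flox cells and 8.07, 7.13 and 7.31 with IgM. It was already at 6.79, 6.80 and 6.63 in unstimulated flox/del cells and at 8.61, 7.62 and 8.61 with IgM. It rose in both genotypes, by 4.49 in wt/flox and 1.28 in flox/del cells without flox/del IgM replicate 3, and the interaction was -2.95 ± 0.37 with 12 arrays (adjusted p = 0.0207, limma) and -3.22 without that array. With IgM the genotypes overlapped.

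Pmp22, a myelin membrane protein also made outside nerve, was detected in 1 group only. Its signal was 5.27, 5.17 and 4.64 in wt/flox cells with IgM, whereas the other 9 arrays were between 2.23 and 3.02. Its interaction was -2.21 ± 0.31 with 12 arrays (adjusted p = 0.0362, limma) and -2.25 without flox/del IgM replicate 3. Slfn1, a Schlafen gene linked to lymphocyte quiescence, fell in both genotypes. Its signal was 7.56, 6.89 and 6.26 in unstimulated wt/flox cells, 4.41, 3.15 and 2.62 with IgM, 6.29, 4.82 and 4.41 in unstimulated flox/del cells and 4.34, 3.18 and 3.07 with IgM. Its interaction was 1.87 ± 0.26 with 12 arrays (adjusted p = 0.0362, limma) and 1.74 without that array. Both groups with IgM held values under log2 4, where the size of a fall is cut off. Among fits leaving out 1 array, Il1r1 passed in 4, Pmp22 in 2 and Slfn1 in 1 of 12.

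The 8 passing genes of the floor class are described by their values, since the class itself fixed their low level in wt/flox cells and the filter largely their higher level in flox/del cells. They fell in flox/del cells with IgM. For none of them did the change with IgM pass in wt/flox cells, where little or no fall could be seen. Hsd17b13, a lipid droplet protein of liver, was at 8.13, 7.89 and 8.60 in unstimulated flox/del cells. The other 9 arrays were between 2.23 and 2.96, so flox/del cells with IgM were back at the floor. Its interaction was -5.53 ± 0.30 with 12 arrays (adjusted p = 1.27e-04, limma) and -5.37 without flox/del IgM replicate 3. Since the fall ended at the floor, its full size was not measured.

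Qpct, which encodes glutaminyl cyclase, was at 9.49, 8.55 and 9.70 in unstimulated flox/del cells and at 5.99, 5.36 and 5.26 with IgM, against 2.90 to 3.04 on the wt/flox arrays. Unlike Hsd17b13 it stayed above the floor with IgM. Its interaction was -3.71 ± 0.37 with 12 arrays (adjusted p = 0.00518, limma) and -3.503 without flox/del IgM replicate 3. Zfhx3, a large zinc finger homeobox factor, was at 8.22, 9.65 and 8.71 without IgM and at 4.27, 5.12 and 4.99 with it in flox/del cells, against 2.82 to 4.09 on the wt/flox arrays. Its interaction was -3.97 ± 0.54 with 12 arrays (adjusted p = 0.0295, limma) and -4.17 without that array, and its 4 probe sets gave -3.21 to -4.79.

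The remaining floor genes were low even where they were highest. Neo1, which encodes the receptor neogenin, was at 6.16, 5.38 and 6.37 in unstimulated flox/del cells and at 2.26, 2.33 and 2.91 with IgM, with an interaction of -3.38 with 12 arrays (adjusted p = 0.00323, limma). Tmtc1, an O-mannosyltransferase of the endoplasmic reticulum, was at 5.16, 5.08 and 5.70 without IgM and at 2.27, 2.26 and 2.94 with it, with an interaction of -2.83 (adjusted p = 0.00338). The rule for naming genes took 5 of the floor class. The other 3 were named after their values were seen, and are Tgfa, an EGF receptor ligand (-2.74, adjusted p = 9.75e-04), the sodium channel gene Scn11a (-2.70, adjusted p = 0.014) and the predicted gene Gm19935 (-2.92, adjusted p = 0.014). Without flox/del IgM replicate 3 the interaction was -2.99 for Tmtc1, -2.79 for Tgfa, -2.59 for Scn11a and -3.04 for Gm19935. Hsd17b13, Qpct, Neo1, Tmtc1 and Tgfa passed in 12 of 12 fits that left out 1 array, Gm19935 and Scn11a in 4, and Zfhx3 in 2. Values at the floor vary little, which lowers the SE and the p. For Tgfa, Scn11a and Gm19935 the SD was 0 in both wt/flox groups. Passing again in these fits therefore does not show that the responses differed.

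**Figure D2:**
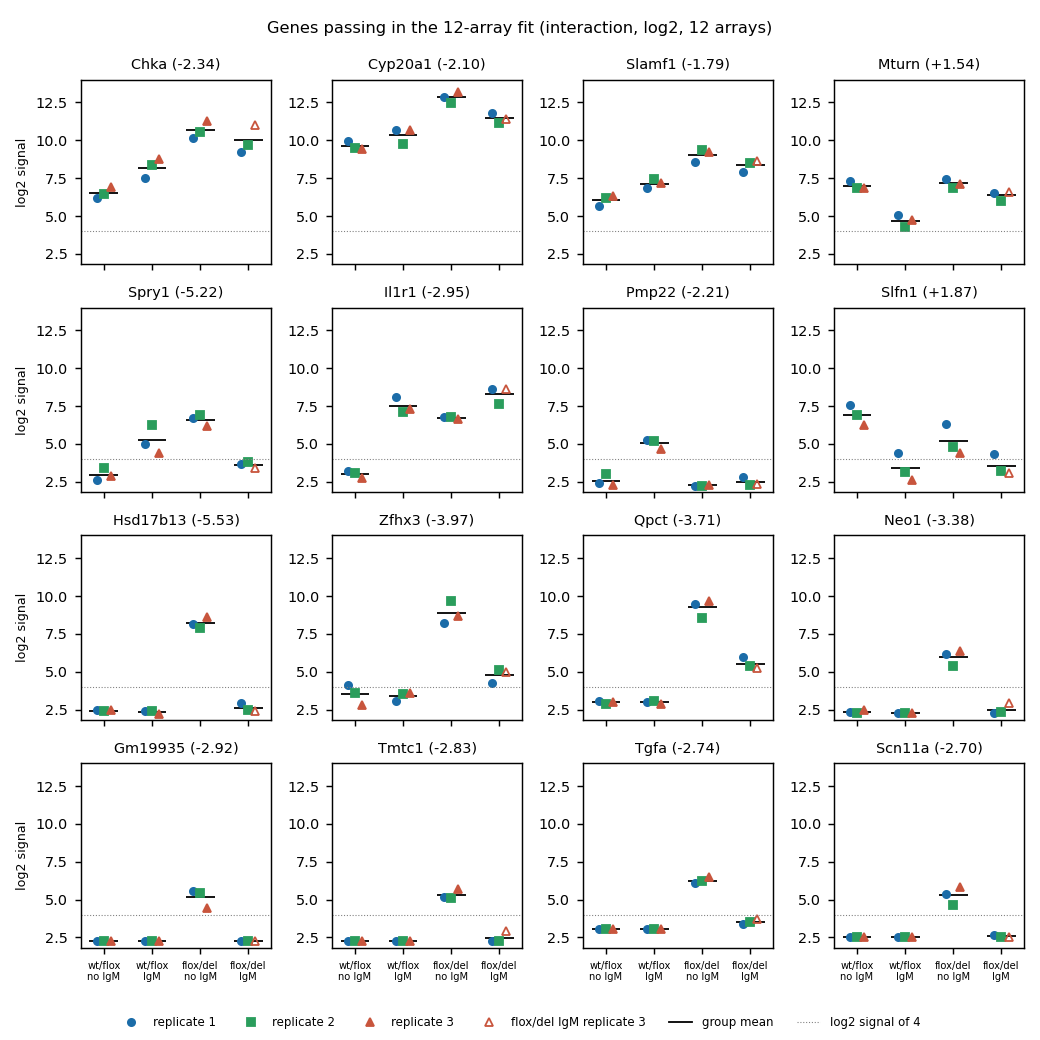
Log2 signal (vertical axes) on each of the 12 arrays for the 16 genes that passed in the 12-array fit, by group (horizontal axes), with symbols for replicate numbers, bars for group means and the 12-array interaction after each name. The top row holds the genes measurable in all 4 groups, the second row those between the classes, and the lower rows the 8 floor genes, which were highest in unstimulated flox/del cells.

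Without flox/del IgM replicate 3, 187 of 9293 genes passed (2.01%, limma with Benjamini-Hochberg adjustment), 107 with a higher (1.15%) and 80 with a lower response in flox/del cells (0.861%). All 16 genes of the 12-array fit were among them, in the same direction, and 171 passed only here. The median SE of the interaction was 0.33 with 12 arrays and 0.18 without this array, and 1321 genes had an unadjusted p under 0.05. The higher calls depended on the block: with this array left out and no block, 16 genes passed, of which none was higher and 3 were measurable. Leaving out all 4 arrays of number 3 gave 33 genes, 4 higher and 29 lower.

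Of these 187 genes, 149 were measurable in all 4 groups, 98 with a higher and 51 with a lower response. The 98 were mostly genes that IgM lowered less in flox/del than in wt/flox cells. The response to IgM passed in 63.2% of all genes in wt/flox cells, where 33.7% fell and 29.5% rose. In flox/del cells it passed in 53.5%, where 29.2% fell and 24.3% rose. Among the 98 genes, 68 fell in both genotypes, 11 fell in wt/flox cells and did not pass in flox/del cells, and 10 rose in both. A further 7 rose in flox/del cells and did not pass in wt/flox cells, and Ets2 and Crem fell in wt/flox and rose in flox/del cells. The median change with IgM over the 98 was -1.92 in wt/flox and -0.94 in flox/del cells. These changes share their arrays with the interaction, which is their difference, and are given as a description.

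The 51 measurable genes with a lower response were of another kind. With IgM, 16 rose in wt/flox cells and fell in flox/del cells, 15 fell in flox/del cells and did not pass in wt/flox cells, 9 fell in both, 7 rose in wt/flox cells alone, and 4 rose in both. Over the 51 genes the median change with IgM was 0.36 in wt/flox and -0.98 in flox/del cells. Their median difference between flox/del and wt/flox cells was 1.60 without IgM and 0.20 with it, whereas for the 98 genes it was -0.39 without IgM and 0.58 with it. The choice by interaction fixes which of these values is the larger.

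**Figure D3:**
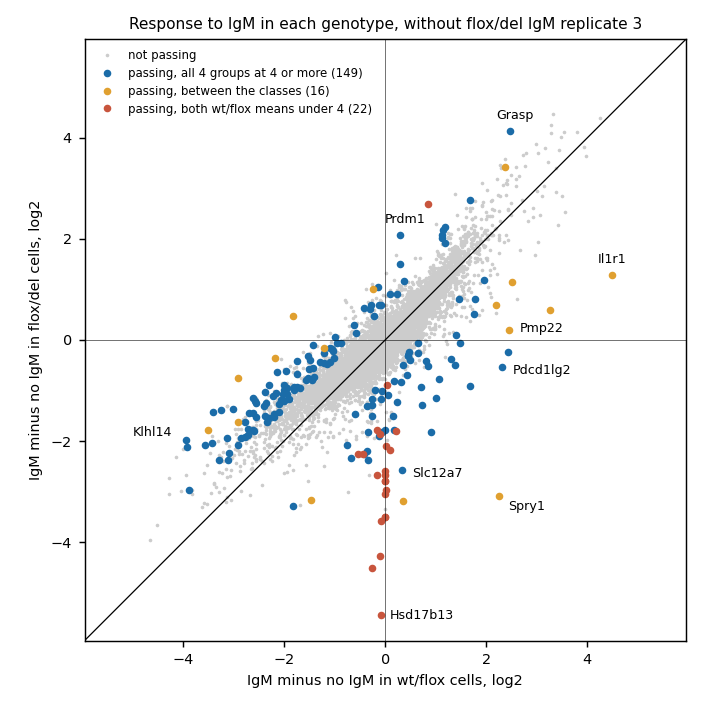
Change with IgM in wt/flox cells (horizontal axis, log2) against that in flox/del cells (vertical axis, log2) for 9293 genes, without flox/del IgM replicate 3. The line marks equal responses; coloured points are the 187 passing genes by class (149 measurable, 16 between, 22 floor), and the floor genes lie along 0 in wt/flox cells, most of them below the line.

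Prdm1 encodes Blimp-1, the factor that drives plasma cell differentiation. Its signal was 7.24, 7.71 and 7.01 in unstimulated wt/flox cells and 7.67, 7.39 and 7.76 with IgM, and these groups overlapped. In flox/del cells it was 7.16, 6.65 and 6.72 without IgM and 9.23, 8.69 and 9.57 with it, so the last group lay above all other arrays. The change with IgM was 0.29 in wt/flox cells, which did not pass, and a rise by 2.07 in flox/del cells. The interaction was 1.78 ± 0.33 without flox/del IgM replicate 3 (adjusted p = 0.0387, limma) and 2.03 ± 0.38 with 12 arrays (adjusted p = 0.12).

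Il10ra, a receptor chain for interleukin-10, had the largest higher response among the measurable genes that passed only without this array, predicted genes left out. Its signal was 9.15, 8.68 and 8.91 in unstimulated wt/flox cells, 5.21, 4.82 and 4.89 with IgM, 7.28, 7.30 and 7.56 in unstimulated flox/del cells, and 5.08, 5.69 and 6.97 with IgM. The fall was from a lower start in flox/del cells, and the groups with IgM overlapped. The interaction was 1.97 ± 0.30 (adjusted p = 0.0217, limma), and 2.48 ± 0.51 with 12 arrays (adjusted p = 0.14).

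Klhl14, a BTB-Kelch protein gene, instead started slightly higher and fell less in flox/del cells. Its signal was 8.38, 8.13 and 8.58 in unstimulated wt/flox and 8.97, 8.60 and 8.80 in unstimulated flox/del cells, and with IgM it was 4.84, 3.98 and 4.49 in wt/flox and 6.74, 6.497 and 8.02 in flox/del cells. The interaction was 1.804 ± 0.21 without flox/del IgM replicate 3 (adjusted p = 0.00821, limma) and 2.22 ± 0.41 with 12 arrays (adjusted p = 0.117). Spata13, a guanine nucleotide exchange factor gene, fell in both genotypes, with an interaction of 1.88 without that array (adjusted p = 0.0188) and 2.17 with it (adjusted p = 0.0817).

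Grasp, a scaffold protein gene, rose in both genotypes. It was at 7.13, 8.29 and 8.25 in unstimulated wt/flox cells, 10.02, 10.43 and 10.65 with IgM, 4.20, 5.43 and 5.13 in unstimulated flox/del cells, and 8.72, 9.10 and 8.93 with IgM. Flox/del cells were below wt/flox cells in both conditions, and the interaction of 1.65 ± 0.28 (adjusted p = 0.028, limma) came from a rise by 4.13 against one by 2.48. Its 3 probe sets did not have the same sign with 12 arrays, at 1.52 (adjusted p = 0.131 in the fit over genes), 0.54 and -1.77. On the last the mean was 5.46 in wt/flox cells with IgM and 2.84 to 3.31 in the other groups, which is near the floor.

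Among the genes with a lower response, Pdcd1lg2 encodes PD-L2, a ligand of the inhibitory receptor PD-1. Its signal was 5.81, 6.55 and 5.81 in unstimulated wt/flox cells and 8.73, 8.32 and 8.07 with IgM. In flox/del cells it was 9.39, 9.50 and 9.54 without IgM and 9.12, 8.94 and 6.33 with it, the last value being that of the array that stood apart. Pdcd1lg2 rose by 2.32 in wt/flox cells, and its change of -0.53 in flox/del cells did not pass. The interaction was -2.85 ± 0.32 without that array (adjusted p = 0.00804, limma) and -3.66 ± 0.74 with it (adjusted p = 0.131).

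Cd274, which encodes the other PD-1 ligand, PD-L1, had the same pattern at a smaller size. It was at 7.77, 8.73 and 8.75 in unstimulated wt/flox cells, 9.38, 9.58 and 10.23 with IgM, 9.39, 10.59 and 10.42 in unstimulated flox/del cells, and 8.97, 10.16 and 10.47 with IgM. The rise by 1.31 in wt/flox cells passed, the change of -0.38 in flox/del cells did not, and the interaction was -1.69 ± 0.29 (adjusted p = 0.0286, limma), against -1.58 with 12 arrays (adjusted p = 0.129). Tnfrsf21, which encodes death receptor 6, was at 5.46, 5.24 and 3.496 in unstimulated wt/flox cells, 7.32, 7.28 and 6.92 with IgM, 8.94, 8.17 and 7.81 in unstimulated flox/del cells and 8.53, 8.25 and 8.57 with IgM. Its interaction was -2.68 ± 0.44 (adjusted p = 0.0263), and -2.295 with 12 arrays (adjusted p = 0.168).

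Slc12a7, a potassium-chloride cotransporter gene, was near or just above log2 4 in wt/flox cells, at 3.80, 4.75 and 5.19 without IgM and 4.24, 5.23 and 5.26 with it. In flox/del cells it was at 8.03, 8.07 and 8.47 without IgM and 5.24, 5.58 and 7.11 with it. It fell by 2.57 in flox/del cells, and the interaction was -2.90 ± 0.30 (adjusted p = 0.00555, limma). Coprs, a cofactor of the arginine methyltransferase Prmt5, and Cep83, a centriole protein gene, rose in wt/flox and fell in flox/del cells, with interactions of -2.73 (adjusted p = 0.022) and -2.17 (adjusted p = 0.00414). In the 12-array fit the interaction was -2.54 for Slc12a7, -3.07 for Coprs and -1.92 for Cep83. In that fit these 3 genes and Pxdc1 and Polh had the smallest p among measurable genes that did not pass, with adjusted p of 0.0512 to 0.0729 (limma). A second Cep83 probe set, less bright, did pass with 12 arrays when all probe sets were tested (-2.405, limma adjusted p = 0.00438).

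**Figure D4:**
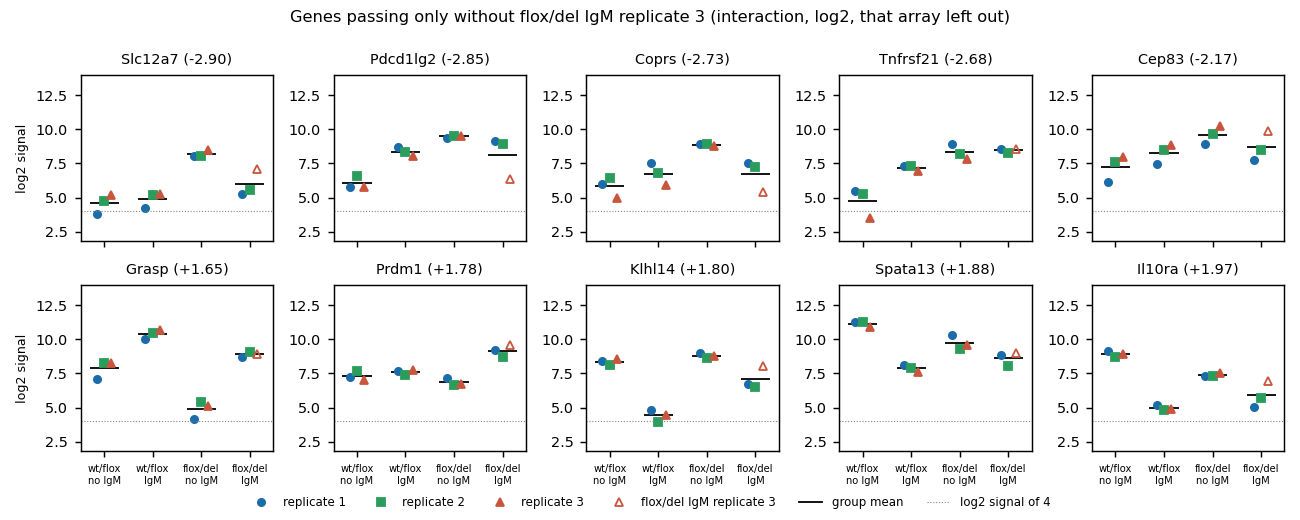
Log2 signal (vertical axes) by group (horizontal axes) on each array for the 5 genes with the largest lower and the 5 with the largest higher response among measurable genes that passed only without flox/del IgM replicate 3 (the open triangle), predicted genes left out. The interaction without that array follows each name, bars are means over 3 arrays, and in Pdcd1lg2, Klhl14 and Il10ra, among others, the open triangle lies apart from its group mates.

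The 16 passing genes between the classes divided evenly, with 8 higher and 8 lower. Il1b, the interleukin-1 beta gene, was at 6.87, 6.96 and 6.62 in unstimulated wt/flox cells and 4.86, 5.59 and 4.52 with IgM, against 3.87, 3.71 and 4.13 in unstimulated flox/del cells and 4.24, 4.66 and 3.42 with IgM. Its interaction was 2.30 ± 0.35 without flox/del IgM replicate 3 (adjusted p = 0.0217, limma) and 2.03 with 12 arrays (adjusted p = 0.131), and all 6 flox/del arrays were at 4.66 or less. Serpinb7, Lca5 and Cldn10 also had flox/del values between 2.25 and 4.13 on every array, with interactions of 2.16, 1.06 and 1.82 without flox/del IgM replicate 3 and 2.41, 1.17 and 1.67 with 12 arrays. Pla1a, a phospholipase gene, was at 9.64, 9.84 and 9.35 in unstimulated flox/del cells and at 6.66, 6.46 and 3.82 with IgM, against 3.79 to 4.69 on the wt/flox arrays. Its interaction was -3.54 ± 0.21 (adjusted p = 4.99e-04), and -4.31 with 12 arrays (adjusted p = 0.054). Map2k6, a MAP kinase kinase gene of the p38 pathway, fell in both genotypes, with an interaction of -1.70 (adjusted p = 0.0493), and -1.69 with 12 arrays (adjusted p = 0.131).

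Of 227 floor genes, 22 passed without this array, 21 with a lower response, which likewise is not read against other genes because of how the filter chose this class. The change with IgM did not pass in wt/flox cells for 19 of the 21, and Skap1 and Rhobtb1 fell in both genotypes. The one with a higher response was Cmtm8, at 1.83, whose sign was the opposite within replicate number 3 (-0.55).

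The gene lists are given by role, from the sensors of B cell receptor signalling onward. With 12 arrays the members of the gene lists that passed were Spry1, among 26 feedback inhibitors measured, and Slamf1, among 18 activation surface proteins. The following counts are from the fit without flox/del IgM replicate 3, in which 2.01% of all genes passed, 1.15% higher and 0.861% lower, and the median interaction of all genes was 0.03. For lists of these sizes that is less than 1 gene, so a count of 0 or 1 does not set a list apart. With 12 arrays the median of all genes was 0.07. None of 24 proximal signalling genes passed, with a median interaction of 0.14 (0.21 with 12 arrays). Of 29 early response factors, only Nr4a1 passed and was higher, with a median over the list of 0.30 (0.12 with 12 arrays). Nr4a1, an orphan nuclear receptor induced by antigen receptors, was at 11.06, 11.48 and 11.20 in unstimulated wt/flox cells, 12.82, 12.997 and 12.97 with IgM, 9.44, 9.66 and 9.35 in unstimulated flox/del cells, and 12.34, 12.20 and 12.66 with IgM. It was lower in flox/del cells in both conditions without overlap, and rose by 2.77 there against 1.68 in wt/flox cells, an interaction of 1.09 ± 0.18 (adjusted p = 0.0254, limma). With 12 arrays it was 1.24 (adjusted p = 0.131).

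Of the 26 feedback inhibitors, Spry1 was lower and Sla, a Src-like adaptor that limits receptor signalling, was higher (0.81, adjusted p = 0.0473, limma), while Sla had 1.17 with 12 arrays (adjusted p = 0.346). None of 18 NF-kB subunits and targets passed. Rel, which encodes c-Rel, had 0.82 (adjusted p = 0.0968) and Icam1 -0.98 (adjusted p = 0.065), against 0.96 and -0.82 with 12 arrays. Among 18 activation surface proteins Pdcd1lg2, Slamf1 and Cd274 were lower and none was higher, while the median of the list was 0.27 (0.15 with 12 arrays). Among 13 cytokines Il1b and Il16 were higher, with a list median of 0.36, against -0.05 with 12 arrays, and among 17 cytokine receptors Il10ra was.

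Of 26 FOXO target and quiescence genes, 4 were higher and none lower, beside 1.15% and 0.861% of all genes, with a list median of 0.38 (0.43 with 12 arrays). None of the 4 passed with 12 arrays. Foxo1, the forkhead factor that keeps resting lymphocytes quiescent, was at 10.36, 10.54 and 10.41 in unstimulated wt/flox cells, 8.91, 9.18 and 8.99 with IgM, 10.02, 10.13 and 9.80 in unstimulated flox/del cells, and 9.16, 9.42 and 9.70 with IgM. It fell by 1.41 in wt/flox cells and fell by 0.73 in flox/del cells, and the interaction was 0.68 ± 0.13 (adjusted p = 0.0444, limma), against 0.86 with 12 arrays (adjusted p = 0.275). The others were the stress genes Gadd45a (1.34, adjusted p = 0.0254) and Sesn1 (0.83, adjusted p = 0.0206) and S1pr1, the receptor that guides exit from lymphoid tissue (0.76, adjusted p = 0.0478). Gadd45a had the opposite sign, -0.49, within replicate number 3. With 12 arrays Gadd45a had 0.76, Sesn1 1.13 and S1pr1 1.09. The forkhead family held 12 measured genes, of which Foxo1 alone passed.

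Of 19 B cell identity genes, Fcrla (1.11, adjusted p = 0.0105, limma) and Blk, a Src kinase of B cells (0.80, adjusted p = 0.025), were higher, and the median was 0.28 (0.25 with 12 arrays). With 12 arrays neither passed, at 0.86 for Fcrla and 0.99 for Blk. Blk was at 11.96, 11.71 and 11.63 in unstimulated wt/flox cells, 11.96, 11.87 and 11.79 with IgM, 11.27, 10.85 and 10.85 in unstimulated flox/del cells, and 12.11, 11.79 and 12.36 with IgM. It rose in flox/del cells, its change of 0.10 in wt/flox cells did not pass, and with IgM the genotypes overlapped. Of 19 marginal zone, follicular and B-1 genes, Gpr183, the oxysterol receptor that positions activated B cells (1.05, adjusted p = 0.0103), and S1pr1 were higher and Spn, which encodes CD43, was lower (-0.94, adjusted p = 0.0485), with a median of 0.52 (0.61 with 12 arrays). With 12 arrays Gpr183 had 0.80 and Spn -0.67, and neither passed. Gpr183 and S1pr1 also stand in the list of 16 homing receptors, whose median was 0.50 (0.58 with 12 arrays).

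Of 12 survival and death genes only Bcl2l11, which encodes the pro-apoptotic protein Bim, passed. It was at 11.98, 12.06 and 11.61 in unstimulated wt/flox cells, 12.38, 12.26 and 12.13 with IgM, 11.16, 11.001 and 10.72 in unstimulated flox/del cells, and 12.32, 12.15 and 12.15 with IgM. Like Blk it was lower in unstimulated flox/del cells and overlapped between genotypes with IgM, with an interaction of 0.79 ± 0.13 (adjusted p = 0.0285, limma), against 0.87 with 12 arrays (adjusted p = 0.177). Among 6 plasma cell markers, Prdm1 and Sdc1, which encodes CD138, were higher, beside 1.15% of all genes (Sdc1 1.09, limma adjusted p = 0.00762, and 1.23 with 12 arrays, adjusted p = 0.0943). The list median was 0.37 (0.45 with 12 arrays), and its median change with IgM was -0.31 in wt/flox and -0.31 in flox/del cells. Sdc1 fell by 1.753 in wt/flox cells and fell by 0.66 in flox/del cells, and Tnfrsf17 was at the floor in all groups. The summed linear signal of the plasma cell list was 17330 to 22230 in flox/del cells with IgM and 20450 to 22310 in wt/flox cells with IgM.

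No member passed in the lists of interferon-induced genes (19, median 0.63), MHC class II presentation (11, median 0.33), recombination and immature B cell genes (15, 0.16), amino acid supply (26, 0.25), ribosome biogenesis (28, 0.22), glycolysis (17, 0.08), the Myc network (10, 0.01), chaperones (19, 0.03), G1/S (24, -0.05), G2/M (19, -0.22) or cholesterol and fatty acid synthesis (18, -0.22). The last 3 medians had the opposite sign with 12 arrays, at 0.05, 0.14 and 0.07. With 12 arrays the median was 0.63 for the interferon-induced and 0.03 for the MHC class II genes, and 0.04 to 0.37 for the other 6 lists. Over all genes 2.01% passed, so a count of 0 in lists of these sizes says little. These lists are also not complete. Outside them, the interferon-induced gene Ifitm3 passed as lower and the MHC class II gene H2-Eb2 as higher, among others. Of the listed genes, Ciita, the master regulator of MHC class II, had 1.58 (adjusted p = 0.065, limma), and 1.89 with 12 arrays (adjusted p = 0.168). The respiratory chain list (24 genes) had a median of -0.83 with 12 arrays and -0.13 without flox/del IgM replicate 3, and cytosolic ribosomal proteins (18) had -0.44 and -0.03. On Cox6c, a respiratory chain gene, that array read 10.05 against 11.999 to 12.99 on the other 11.

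**Figure D5:**
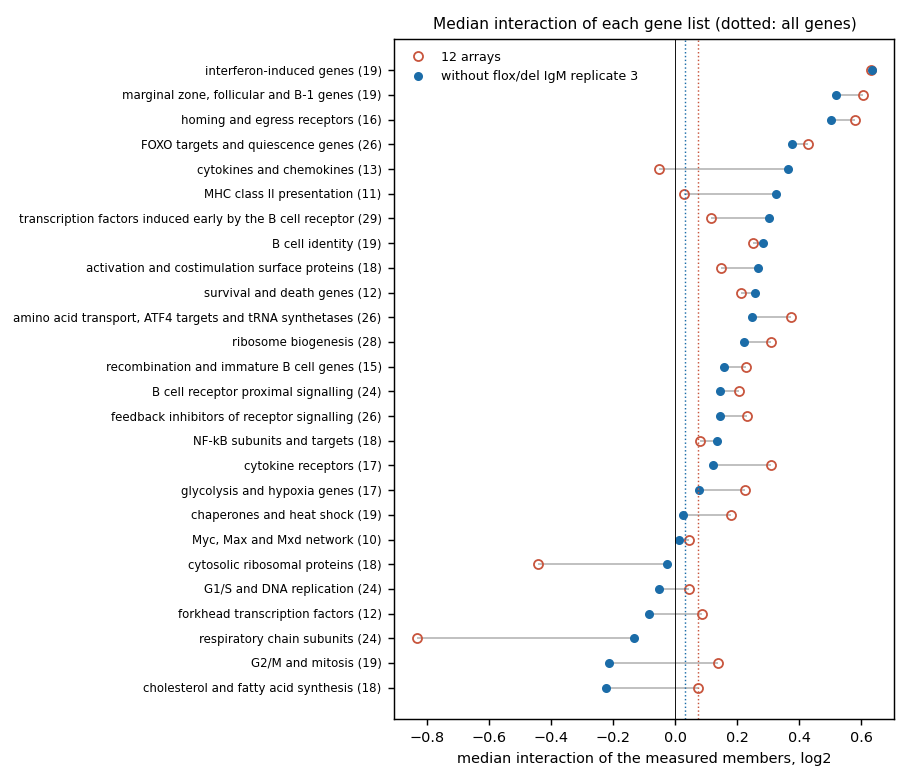
Median interaction (log2, horizontal axis) of the measured members of each gene list, with the number of members after its name, from 12 arrays (open) and without flox/del IgM replicate 3 (filled), and dotted lines at the medians of all genes. Respiratory chain genes moved most between the fits (-0.83 and -0.13), and of the lists shown the interferon-induced genes had the highest median in both (0.63 and 0.63).

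The fits also differed by the genomic span of the genes, from start to end with introns. Over 5 equally large span classes, the median interaction with 12 arrays was -0.38 for the shortest and 0.25 for the longest genes. Without flox/del IgM replicate 3 the same medians were -0.01 and 0.04, and within replicate number 3 they were -1.07 and 0.72. Each class held 1854 genes. Of the 187 genes that passed without that array (2.01% of all genes), 30, 19, 36, 38 and 64 were in the classes from shortest to longest.

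Marker genes of other cell types were also read in these groups. The summed linear signal of the neutrophil list was 428 to 2949 in unstimulated wt/flox cells, 306 to 1683 with IgM, 4048 to 25440 in unstimulated flox/del cells and 1837 to 14910 with IgM, with Cxcr2 at the floor throughout. For macrophage and monocyte genes these ranges were 2761 to 5079, 1205 to 2818, 3349 to 8067 and 2116 to 6182. The interaction passed in 0 of 11 neutrophil and 0 of 9 macrophage genes measured in either fit (limma), and in none of the T cell, NK, dendritic, erythroid, progenitor, platelet or stromal markers. Since 0.172% of all genes passed with 12 arrays and 2.01% without flox/del IgM replicate 3, a count of 0 in such lists says little. In bulk RNA, fewer cells of a type and less RNA per cell cannot be told apart, and the part of such cells in the results was not tested.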

How the data were processed

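RNA of B220-positive splenic B cells was measured on 12 one-colour Affymetrix arrays. The deposited values are log2 signals made by the authors with GCRMA, per the submitters' processing notes, and its version is not given in the sources used here. GCRMA corrects background, applies quantile normalization and summarises probes. The array held 45101 probe sets, of which 34945 named 1 gene in the platform annotation. Probe sets above log2 4 on at least 3 arrays were kept, and the one with the highest mean stood for each gene, which left 9293 genes. Arrays give no read depth; their number limits the precision.

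The interaction was fitted by lmFit, contrasts.fit and eBayes of limma 3.58.1 (R 4.3.3), with a mean for each of the 4 groups and the replicate number as a block, on 12 arrays and again without flox/del IgM replicate 3. Residual degrees of freedom were 6 and 5. All tests were two-sided. The p-values were adjusted after Benjamini-Hochberg over the 9293 genes, with a threshold of 0.05, and errors are standard errors of the fit. The script was tested on simulated data. The numbers come from the sample titles and were taken to pair the samples, since arrays with the same number deviated together from their group means, with correlations of 0.1003 to 0.8468 in all 18 pairs of arrays. Alternatives covered the block, the filter, normalization, floor, probe sets, variance model, weights, thresholds and left-out arrays.

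The members and gene lists were chosen with earlier results of these data known. Named genes were those passing with 12 arrays and the same sign in all 3 replicate numbers, up to 10 per direction in the measurable class and 5 in the others, predicted genes left out. Where a class had under 5 such genes, up to 5 with the smallest p were named as not passing. Also named were up to 5 measurable genes per direction that passed only without that array, Foxp1, and up to 4 passing members of each list, or up to 2 with the smallest p.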

Additional observations from a re-analysis of the deposited data

Results flagged for a closer look

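For 16 genes the test of the difference between genotypes passed with 12 arrays (limma, Benjamini-Hochberg). Of these, 8 were in the floor class, where little or no fall with IgM could be seen in wt/flox cells. Their values therefore do not show whether the responses differed. The lower responses were those of Hsd17b13 (-5.53), Spry1 (-5.22), Zfhx3 (-3.97), Qpct (-3.71), Neo1 (-3.38), Il1r1 (-2.95), Gm19935 (-2.92), Tmtc1 (-2.83), Tgfa (-2.74), Scn11a (-2.70), Chka (-2.34), Pmp22 (-2.21), Cyp20a1 (-2.10) and Slamf1 (-1.79). The higher responses were those of Slfn1 (1.87) and Mturn (1.54). All are log2 interactions over 3 replicate numbers, each with its sign in 3 of 3. The same held for 44.0% of all genes tested, and choosing the 16 by a small p favours it.

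The same test passed for 171 genes without flox/del IgM replicate 3 and not with 12 arrays. Of these, the 5 measurable genes in each direction with the largest interaction, predicted genes left out, were Slc12a7 (-2.90), Pdcd1lg2 (-2.85), Coprs (-2.73), Tnfrsf21 (-2.68), Cep83 (-2.17), Grasp (1.65), Prdm1 (1.78), Klhl14 (1.804), Spata13 (1.88) and Il10ra (1.97). Each gene is judged here by its brightest probe set, and another probe set of Cep83 passed with 12 arrays.

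Probe sets with several genes or no gene in the annotation were outside the comparisons. Of 2444 such probe sets above the filter, 7 passed for the interaction with 12 arrays and 18 without flox/del IgM replicate 3. They are unnamed here.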

How the results depend on the processing

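The 16 genes that passed with 12 arrays kept their direction in all 390 values recomputed under the alternatives, and passed in 221 of them (limma, Benjamini-Hochberg). They were chosen by a small p on these same arrays, which favours keeping the direction. The counts moved more. The main counts were 16 in all, 2 higher, 14 lower, 4 measurable and 8 in the floor class. When arrays were left out, singly or as all 4 arrays of a replicate number, these ranged from 0 to 187, 0 to 107, 0 to 80, 0 to 149 and 0 to 22. The total was 0 without all arrays of number 1 or 2, where 338 and 404 genes had an unadjusted p under 0.05. Without a single array, the count of higher responses was 0 in 9 of 12 fits (314 to 822 at an unadjusted p under 0.05), and the measurable count was 0 without flox/del IgM replicate 1, or replicate 1 or 2 of either wt/flox group. Without the replicate block the counts were 10, 0, 10, 0 and 8, and with flox/del IgM replicate 3 left out as well, a setting chosen after the data were seen, 16, 0, 16, 3 and 10. With no filter (18193 genes) they were 12, 1, 11, 3 and 7, and with values above 5 on at least 6 arrays (8443 genes) 2, 0, 2, 1 and 1. Quantile normalization again gave 21, 1, 20, 8 and 8, median centring 19, 1, 18, 6 and 8, and values under 4 set to 4 gave 14, 4, 10, 4 and 6. Testing every probe set gave 26, 4, 22, 11 and 10, a trended robust variance 13, 0, 13, 3 and 8, and array weights 390, 244, 146, 324 and 32. At thresholds of 0.1 and 0.01, 30 and 6 genes passed. The causes of these shifts were not tested. Foxp1, whose interaction was close to 0, ranged from -0.0614 to 0.0844 when arrays were left out, was 0.0397 after quantile normalization, -0.166 in the fit over every probe set and -0.21 without both the block and flox/del IgM replicate 3, so its sign turned, and it passed in none.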

Other observations

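The genes of this paragraph were chosen after their values were seen, and all passed for the interaction without flox/del IgM replicate 3 and not with 12 arrays (limma, Benjamini-Hochberg). Some signalling genes fell in wt/flox cells and did not pass in flox/del cells. The kinase gene Jak2 changed by -0.88 in wt/flox and -0.06 in flox/del cells, and Tlr2, a receptor for bacterial lipoproteins, by -1.43 and -0.10. Ets2, a transcription factor induced by MAPK signalling, fell by 0.41 in wt/flox and rose by 0.64 in flox/del cells, an interaction of 1.05 (adjusted p = 0.0193). Crem, a cAMP-responsive factor, had the same pattern with 0.92 (adjusted p = 0.0277), but the opposite sign within replicate number 3 (-0.17). Gpr65, an acid-sensing receptor gene, rose by 1.18 in wt/flox and 1.92 in flox/del cells, and Litaf by 1.15 and 2.17. The unstimulated group means of Ets2 were 11.51 in wt/flox and 10.10 in flox/del cells, those of Crem 13.04 and 11.30, and those of Litaf 11.92 and 10.34.

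Among genes with a lower response, Ifitm3, an interferon-induced antiviral membrane protein, changed by 1.47 in wt/flox and -0.06 in flox/del cells, with an interaction of -1.53 (adjusted p = 0.036). Ptger4, a prostaglandin E receptor gene, rose by 1.77 in wt/flox and 0.52 in flox/del cells, with -1.25 (adjusted p = 0.0146). For the next 2 genes the group means are over all 12 arrays, while the interaction leaves out flox/del IgM replicate 3, so it is not the difference of these means. Slamf9, a relative of Slamf1, had means of 8.01 and 7.87 in wt/flox cells without and with IgM. In flox/del cells they were 11.89 and 9.30, and the interaction was -1.77 (limma adjusted p = 0.0251). Fut8, the core fucosyltransferase gene, had means of 7.84 and 7.49 in wt/flox and 11.86 and 10.08 in flox/del cells. Its interaction without flox/del IgM replicate 3 was -1.85 (limma adjusted p = 0.0285). Cxcr3, a chemokine receptor gene, and Vangl2, a planar polarity gene, fell in both genotypes, and more in flox/del cells, with -1.34 (adjusted p = 0.0436) and -1.46 (adjusted p = 0.0217).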
